A study of Mus musculus with 6 samples.

Results

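The MHC class I presentation genes are 10 genes chosen by name: B2m, H2-K1, H2-D1, H2-T23, Tap1, Tap2, Tapbp, Psmb8, Psmb9 and Nlrc5. The rule that finds them uses symbols and no measured value, and all 10 were found among the 47561 gene and transcript features of each library. RNA sequencing was done on neutrophils isolated by flow cytometry from mouse peripheral blood, in 3 libraries from mice that received AVP over 30 days and in 3 libraries from negative-control mice. The labels do not spell out AVP. The sources used here give no strain, age, sex, dose or route. They also do not say that each library is another animal, so the p-values below rest on library-to-library spread that may be technical.

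Class I molecules carry short peptides from proteins made inside a cell to its surface, where CD8+ T cells and NK cells inspect them. The proteasome cuts proteins into peptides, a transporter moves the peptides into the endoplasmic reticulum, and a loading complex places them on a heavy chain paired with the light chain beta-2-microglobulin. Interferons are the classical inducers of the pathway, and mature neutrophils, like nearly all nucleated cells, carry class I on their surface.

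Values are FPKM per gene, that is, sequenced fragments divided by transcript length and by library depth. Depth, estimated from the smallest steps between low values, was 14200000 to 16800000 fragments per library, and the 10 genes rested on about 40 (Nlrc5) to 89223 (B2m) estimated fragments in a library. An exact 0 can be a failed estimate in these files: of 3613 genes with a mean of at least 10 FPKM, 341 (9.44%) were listed at 0 in at least 1 library, so genes are said below to be listed at 0. None of the 10 genes was listed at 0 in any library. Of the 12 neutrophil markers, 9 to 12 were above 0 in each library. The highest by mean were the calprotectin genes S100a8 (105468 ± 9458 FPKM in AVP libraries and 116249 ± 9406 FPKM in controls, SD, n = 3 each) and S100a9 (62212 ± 5639 and 59326 ± 2373 FPKM), and Retnlg (10430.5 ± 664 and 5173 ± 323 FPKM). Of the 11 markers tested, 0 passed an adjusted p under 0.05 in limma. At an unadjusted p under 0.05 in limma 4 were higher in AVP libraries (Retnlg, Lcn2, Ngp and Ly6g) and 1 lower (Mmp9). That threshold was passed by 8.47% of all tested genes and by 118 of the 615 with a mean of at least 100 FPKM. Ly6g (109 ± 52.2 and 44.3 ± 28.7 FPKM) overlapped between groups. Groups did not overlap in 14% of all tested genes and in 160 of those 615. All AVP libraries lay above all controls for Retnlg, for the granule gene Lcn2 (882 ± 119 and 339 ± 123 FPKM) and for Ngp (24.1, 39.6 and 13.9 FPKM in AVP libraries, against 5.41, 0 and 13.6 FPKM in controls), and below them for Mmp9, a gelatinase (147 ± 48.5 and 278 ± 83.1 FPKM). The part of this in the values below was not tested.

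None of the 10 genes differed between AVP and control libraries at an adjusted p under 0.05 (limma, Benjamini-Hochberg over 8523 tested genes), and 0% of all tested genes did. At an unadjusted p under 0.05, 0 of the 10 passed in limma, against 8.47% of all tested genes. The fitted differences leaned higher in AVP libraries for 6 genes and lower for 4, with a median log2 fold change of 0.20, against -0.04 over all tested genes. Nlrc5 had the largest difference and was the only one of the 10 genes whose AVP and control libraries did not overlap in deposited FPKM. It met the filter of 1 FPKM in at least 3 libraries through the AVP group, as control libraries 2 and 3 read 0.38 and 0.527 FPKM. Its difference is therefore not independent of that filter. Groups did not overlap in 14% of all tested genes, with AVP above in 6.39% and AVP below in 7.63%. After scaling of the libraries H2-K1 also stood apart, so that 2 of the 10 genes did not overlap, against 14% of all genes on that scale. Both shares were larger among abundant genes. Of the 615 tested genes with a mean of at least 100 FPKM, 118 passed an unadjusted p under 0.05 in limma. Groups of 160 of those 615 did not overlap in deposited FPKM.

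The order of levels was the same by group mean in AVP and control libraries: B2m, H2-D1, H2-K1, Psmb9, H2-T23, Psmb8, Tapbp, Tap1, Tap2 and Nlrc5. FPKM are per length, so levels can be compared between genes. B2m ranked 16th of the 8523 tested genes by mean level, H2-D1 84th and H2-K1 186th, while Tap1 ranked 1936th, Tap2 3103rd and Nlrc5 7703rd. Over the 6 libraries the ranges of Psmb9 and H2-T23, of H2-T23 and Psmb8, of Tapbp and Tap1, and of Tap1 and Tap2 overlapped. Within single libraries, H2-T23 exceeded Psmb8, Tapbp exceeded Tap1 and Tap1 exceeded Tap2 in all 6, and Psmb9 exceeded H2-T23 in 5. The steps from B2m to H2-D1, from H2-D1 to H2-K1, from H2-K1 to Psmb9, from Psmb8 to Tapbp and from Tap2 to Nlrc5 were each free of overlap.

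**Figure D1:**
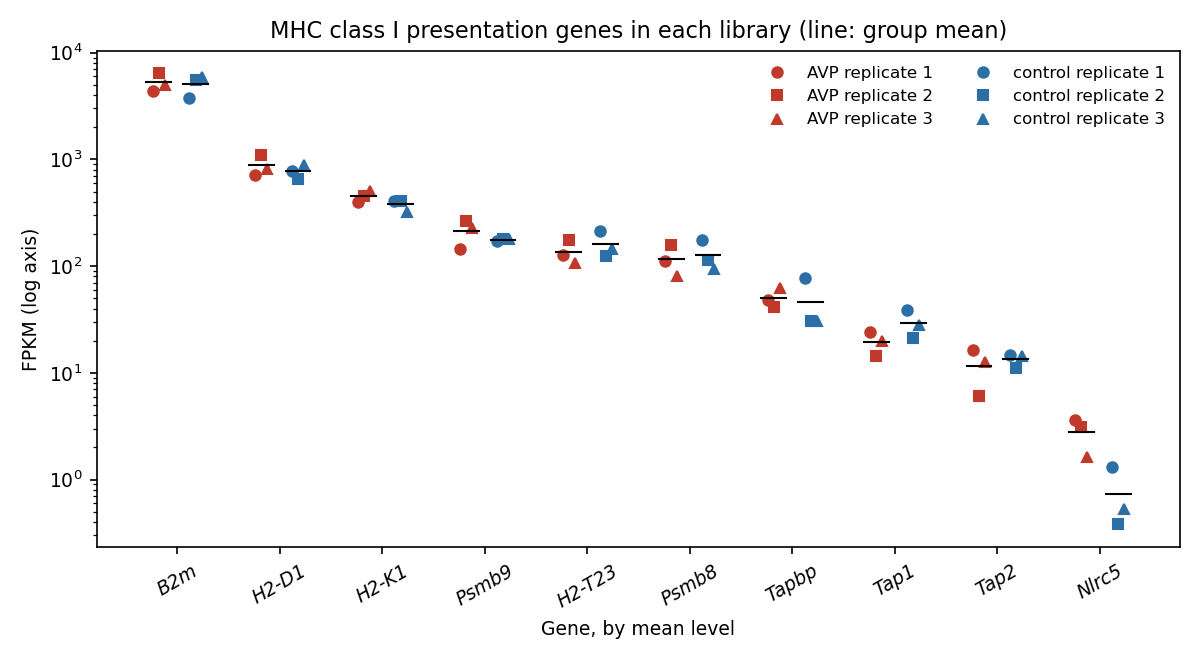
Deposited FPKM (log scale) of the 10 genes in each of the 6 libraries, with genes in order of mean level, AVP libraries left of control libraries; points are single libraries and lines are group means. The 3 AVP libraries overlap the control libraries for every gene except Nlrc5, at 1.64 to 3.58 FPKM in AVP libraries and 0.38 to 1.3 FPKM in controls.

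B2m encodes the light chain shared by all class I molecules, and lies on chromosome 2 (GRCm38 122147687 to 122153082, plus strand, gene ID 12010). It read 4379.7, 6404 and 5013 FPKM in AVP libraries 1 to 3, against 3749, 5590.2 and 5879.6 FPKM in control libraries 1 to 3. The ranges overlapped, with the highest library in the AVP group and the lowest among the controls. The fold change was 0.15 on the log2(FPKM + 1) scale (SE 0.22, limma adjusted p = 0.893), and the 95% interval of -0.35 to 0.64 lies within 1 log2 unit of 0 on both sides. Without control library 1 the fold change was -0.07. Its level was 1.71 times as high in the highest library as in the lowest.

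H2-K1 and H2-D1 encode the classical heavy chains, which bind the peptide. H2-K1 (chromosome 17, 33996012 to 34000619, minus strand, gene ID 14972) read 396, 452 and 509 FPKM in AVP libraries, against 412, 410.4 and 319 FPKM in controls. As deposited, only AVP library 1 lay among the controls, and after scaling all 3 AVP libraries lay above all 3 controls. The fold change was 0.33 (SE 0.20, 95% interval -0.14 to 0.80, limma adjusted p = 0.741), and the exact two-sided permutation test gave p = 0.1, which is the lowest p possible with 3 libraries in each group.

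H2-D1 (chromosome 17, 35263094 to 35267497, plus strand, gene ID 14964) read 717, 1107 and 810.4 FPKM in AVP libraries, against 785, 649.6 and 893 FPKM in controls. AVP library 2 stood above all controls and the other two AVP libraries lay among them. The fold change was 0.25 (SE 0.21, 95% interval -0.23 to 0.72, limma adjusted p = 0.809). H2-T23 encodes the nonclassical heavy chain of the Qa family that engages an inhibitory receptor on NK cells (chromosome 17, 36029977 to 36032701, minus strand, gene ID 15040). It read 127, 175 and 108 FPKM in AVP libraries, against 213, 125 and 146 FPKM in controls, with overlapping groups and a fold change of -0.15 (SE 0.29, 95% interval -0.82 to 0.53, limma adjusted p = 0.922). The H2-T23 fold change was 0.02 without AVP library 3 and 0.06 without control library 1. The heavy chains are among the most polymorphic genes of the mouse. Reads here were set against the mm10 assembly, which derives from C57BL/6J, so with another strain their FPKM would depend on how well reads matched; whether that applies was not tested. Of the stretches of 151 bases in the annotated transcripts, 0% were shared with another gene for H2-K1, 1.74% for H2-D1 (with H2-Q1) and 0.756% for H2-T23.

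The level of a heavy chain relative to its light chain does not depend on library scaling. H2-K1 over B2m was 0.0905, 0.0705 and 0.101 in AVP libraries, against 0.110, 0.0734 and 0.0543 in controls. H2-D1 over B2m was 0.164, 0.173 and 0.162 in AVP libraries, against 0.209, 0.116 and 0.152 in controls. Both ratios overlapped between groups, with mean log2 differences of 0.19 for H2-K1 and 0.10 for H2-D1 (exact two-sided permutation p = 0.7 for each, adjusted over the 2 ratios 0.7). The H2-K1 difference was -0.05 without control library 3 and the H2-D1 difference -0.10 without control library 2. For H2-D1 the ratio kept close together in the AVP libraries, with an SD of 0.05 on the log2 scale, against 0.43 in controls (n = 3 each); the difference in spread was not tested.

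Class I promoters share a module read by RFX, CREB/ATF and NF-Y factors and by NLRC5, with sites for NF-kB and interferon regulatory factors further upstream, and the promoters of B2m and of both classical heavy chains are printed for that reason. The windows are RefSeq sequences of GRCm38.p6, 250 bases before to 50 after an annotated start, and 8 of the 10 genes had one; Tap2 and Nlrc5 did not. The B2m window is chr2:122147437-122147736 on the plus strand. The H2-K1 window is chr17:34000298-34000597 on the minus strand, the more upstream of the 2 windows given for this gene; the start it surrounds lies inside the annotated gene, whose right end is 34000619. The H2-D1 window is chr17:35262844-35263143 on the plus strand. Capitals mark matches to the motifs searched, 5′ to 3′ as printed and on the opposite strand.
B2m: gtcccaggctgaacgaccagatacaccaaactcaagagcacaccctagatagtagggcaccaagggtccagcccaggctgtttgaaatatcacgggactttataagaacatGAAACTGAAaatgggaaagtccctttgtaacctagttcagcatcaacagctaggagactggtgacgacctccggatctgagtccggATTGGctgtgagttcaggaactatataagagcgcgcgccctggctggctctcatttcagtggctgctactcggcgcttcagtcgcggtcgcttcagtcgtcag
H2-K1: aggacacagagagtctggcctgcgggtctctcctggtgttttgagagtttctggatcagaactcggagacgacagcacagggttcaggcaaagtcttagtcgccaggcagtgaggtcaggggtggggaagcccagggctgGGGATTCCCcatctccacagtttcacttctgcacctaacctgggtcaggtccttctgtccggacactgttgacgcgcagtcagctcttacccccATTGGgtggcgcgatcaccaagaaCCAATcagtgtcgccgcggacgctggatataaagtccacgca
H2-D1: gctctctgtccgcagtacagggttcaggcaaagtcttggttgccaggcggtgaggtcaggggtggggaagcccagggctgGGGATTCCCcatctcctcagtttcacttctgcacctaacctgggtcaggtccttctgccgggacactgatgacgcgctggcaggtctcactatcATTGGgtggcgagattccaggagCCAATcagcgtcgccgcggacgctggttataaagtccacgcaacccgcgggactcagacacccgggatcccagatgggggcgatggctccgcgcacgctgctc
In the windows the capitals mark GAAANNGAA, the core of an interferon response element, in B2m, and GGGATTCCC, an NF-kB site, in H2-K1 and H2-D1. All of them hold CCAAT, the letters of the Y box read by NF-Y, or its reverse complement ATTGG. H2-K1 and H2-D1 hold both orientations, and the CCAAT of H2-K1 begins 8 bases after the start that its window surrounds. Which of these matches serves as a Y box was not tested. GGGATTCCC was present in 0.353% of all 32851 promoter windows, GAAANNGAA in 8.56% and CCAAT in 37.4%. H2-K1 and H2-D1 shared an identical run of 47 bases within their windows. Among the other genes with a window, GAAANNGAA was found in H2-T23, CCAAT in H2-T23, Tap1, Psmb9 and Tapbp, and TTCNNNGAA, a STAT site held by 8.30% of windows, in Psmb8. The letters TGACGT, held by 7.51% of windows, were in none of the 8. No matches overlapped, and a match describes letters only. Only these fixed patterns were searched, so a window without a match may still hold a variant of the site.

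Tap1 and Tap2 encode the partner chains of the transporter that pumps peptides into the endoplasmic reticulum, and Tapbp encodes tapasin, which bridges the transporter to the empty heavy chain. Tap1 (chromosome 17, 34187556 to 34197225, plus strand, gene ID 21354) read 23.9, 14.4 and 19.9 FPKM in AVP libraries, against 38.8, 21.4 and 28.3 FPKM in controls. AVP library 1 lay above control library 2, and the other AVP libraries lay below all controls. Its fold change was -0.49 (SE 0.42, 95% interval -1.45 to 0.47, limma adjusted p = 0.819; exact two-sided permutation p = 0.2), the lowest of the 10 genes.

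Tap2 (chromosome 17, 34204479 to 34216321, plus strand, gene ID 21355) read 16.4, 6.1 and 12.5 FPKM in AVP libraries, against 14.6, 11 and 14.5 FPKM in controls. AVP library 2 was the lowest of the 6 for both transporter genes, and without it the Tap2 fold change was 0.23. The Tap2 fold change was -0.19 (SE 0.53, 95% interval -1.39 to 1.02, limma adjusted p = 0.939). Tapbp (chromosome 17, 33919478 to 33929290, plus strand, gene ID 21356) read 48.1, 41.5 and 62.7 FPKM in AVP libraries, against 78.1, 30.6 and 30.9 FPKM in controls. Control library 1 was the highest of the 6 and the other controls were the lowest, so the control SD of 27.3 FPKM exceeded the AVP SD of 10.9 FPKM (n = 3 each). The Tapbp fold change was 0.33 (SE 0.43, 95% interval -0.67 to 1.32, limma adjusted p = 0.878), and it was 0.75 without control library 1. Of the stretches of 151 bases in the Tapbp transcript, 8.62% were shared with Gm19412, so some reads could be counted to either. For all 3 loading genes the interval reaches past 1 log2 unit on at least one side, so a change of that size was not separable from no difference with these libraries.

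Psmb8 and Psmb9 encode catalytic subunits of the immunoproteasome, which take the places of Psmb5 and Psmb6 in newly built proteasomes. Psmb8 (chromosome 17, 34198195 to 34201454, plus strand, gene ID 16913) read 111, 158 and 80.2 FPKM in AVP libraries, against 175, 115 and 94.1 FPKM in controls. The highest library was a control and the lowest an AVP library, with the groups overlapping. Its fold change of -0.06 (SE 0.34, 95% interval -0.85 to 0.73, limma adjusted p = 0.970) was the closest to 0 of the 10 genes, and it was 0.19 without AVP library 3 and 0.18 without control library 1.

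Psmb9 (chromosome 17, 34182030 to 34187330, minus strand, gene ID 16912) read 144, 267 and 229 FPKM in AVP libraries, against 171, 179 and 178 FPKM in controls. The controls lay within a narrow band, with AVP library 1 below it and AVP libraries 2 and 3 above it. The SD was 62.9 FPKM in AVP libraries, against 4.28 FPKM in controls (n = 3 each), a difference in spread that was not tested. The fold change was 0.31 (SE 0.25, 95% interval -0.26 to 0.88, limma adjusted p = 0.798).

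Set against the constitutive subunit that each replaces, the immunosubunits gave ratios that overlapped between groups in all 3 comparisons. Psmb9 over Psmb6 was 2.67, 3.71 and 4.90 in AVP libraries, against 1.56, 1.91 and 2.72 in controls, a mean log2 difference of 0.86 (exact two-sided permutation p = 0.2, adjusted over the 3 ratios 0.6). Only AVP library 1 fell among the controls, just below control library 3. The constitutive Psmb6 itself read 57.5 ± 12.9 FPKM in AVP libraries and 89.6 ± 22.5 FPKM in controls (SD, n = 3 each).

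Psmb8 over Psmb5 was 2.97, 2.21 and 1.45 in AVP libraries, against 3.01, 2.80 and 1.79 in controls, a mean log2 difference of -0.22 (exact two-sided permutation p = 0.6, adjusted 0.6) that was 0.05 without AVP library 3. Psmb10 encodes the remaining immunosubunit and replaces Psmb7. Psmb10 over Psmb7 was 0.597, 1.63 and 1.08 in AVP libraries, against 0.738, 0.752 and 0.599 in controls, a mean log2 difference of 0.56 (exact two-sided permutation p = 0.4, adjusted 0.6). In every library Psmb8 and Psmb9 exceeded the subunit they replace, while Psmb10 exceeded Psmb7 in AVP libraries 2 and 3 only.

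**Figure D2:**
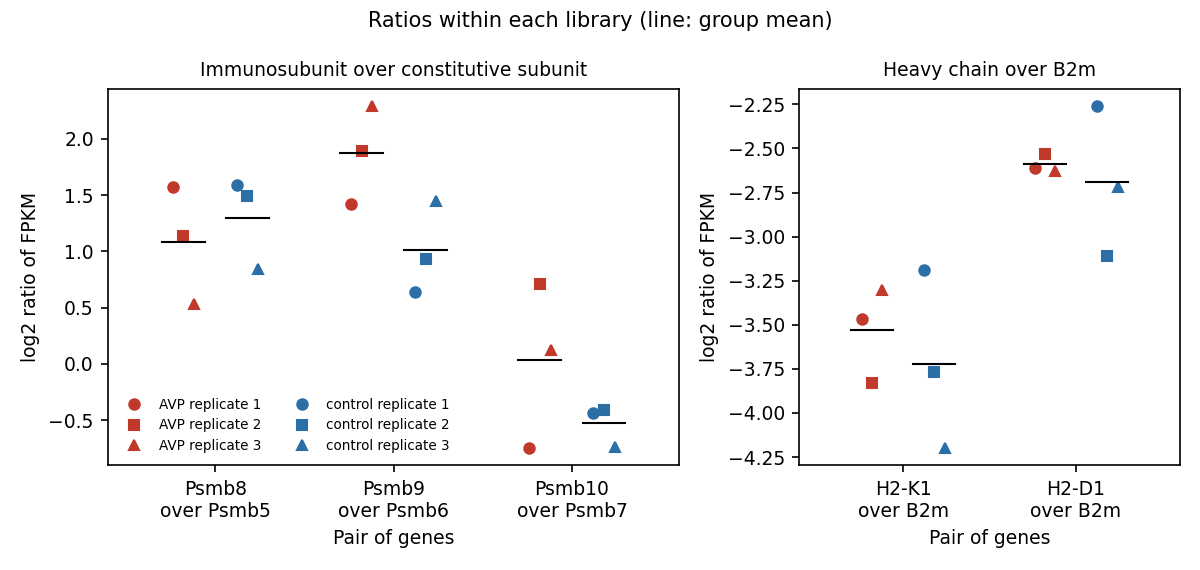
Ratio of each immunosubunit to its constitutive counterpart, and of each classical heavy chain to B2m, as the log2 ratio of deposited FPKM in each library, AVP left of control; points are single libraries and lines are group means of the log2 ratio. Every ratio overlaps between groups; the mean log2 ratio of Psmb9 over Psmb6 is 1.87 in AVP libraries and 1.01 in controls.

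Psmb9, Tap1, Psmb8 and Tap2 stand side by side within 34292 bases of chromosome 17, in the class II region. Psmb9 and Tap1 are transcribed away from each other from starts only 225 bases apart, and their printed windows share 275 bases, so the window of Tap1 is given for both. It is chr17:34187306-34187605 on the plus strand, GRCm38.p6, with the CCAAT letters in capitals.
Tap1: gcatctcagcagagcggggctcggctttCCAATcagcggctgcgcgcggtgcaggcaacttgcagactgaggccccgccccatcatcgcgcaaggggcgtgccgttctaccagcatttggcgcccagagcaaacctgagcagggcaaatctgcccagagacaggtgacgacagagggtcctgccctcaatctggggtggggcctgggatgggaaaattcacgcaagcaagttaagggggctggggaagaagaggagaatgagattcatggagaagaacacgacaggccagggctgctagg
Despite the shared start region the pair took opposite values across libraries: AVP library 2 had the highest Psmb9 and the lowest Tap1, and the Pearson correlation of their log2 values was -0.86 over the 6 libraries, the lowest of the 45 pairs of the 10 genes. Tap2 and Psmb9 gave -0.80 and B2m and Tap1 -0.81, whereas H2-T23 and Psmb8 gave 0.88, Tap1 and Tap2 0.81 and H2-D1 and Psmb9 0.66. Of the 45 pairs, 22 were above 0, with a median of 0. These correlations describe 6 libraries that share their depth and scaling, and pairs were singled out after their values were seen. Of the stretches of 151 bases in their transcripts, 2.21% of those of Tap1 and 5.16% of those of Psmb9 were shared by both genes, so a small share of reads could be counted to either.

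**Figure D3:**
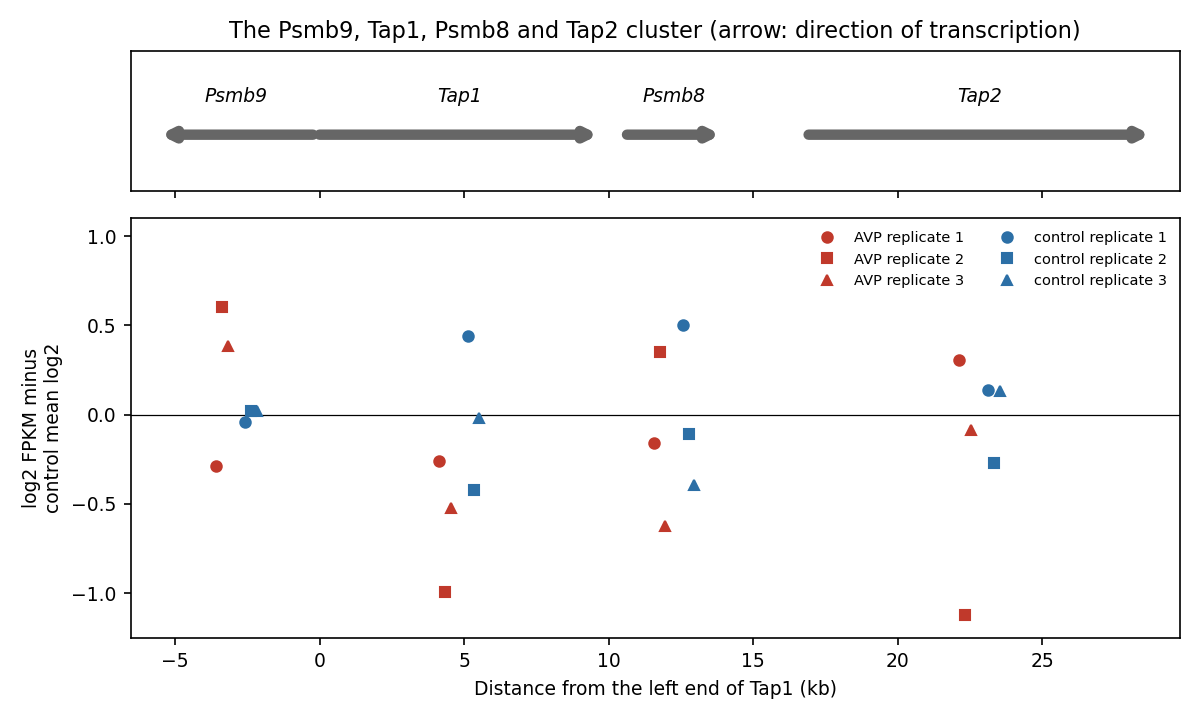
Position of Psmb9, Tap1, Psmb8 and Tap2 (kilobases from the left end of Tap1, arrows in the direction of transcription) and, below, each library's log2 FPKM minus the control mean log2 for the gene above it, AVP points left of control points. AVP replicate 2 is highest for Psmb9 and lowest for Tap1 and Tap2.

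Nlrc5 encodes the transactivator of class I genes and lies on chromosome 8 (94434335 to 94527272, plus strand, gene ID 434341). It read 3.58, 3.08 and 1.64 FPKM in AVP libraries, against 1.3, 0.38 and 0.527 FPKM in controls, with each AVP library above each control. Among the controls only library 1 reached 1 FPKM, so Nlrc5 passed the filter because of its AVP values. The mean was 2.77 ± 1.01 FPKM in AVP libraries and 0.737 ± 0.497 FPKM in controls (SD, n = 3 each), a 3.76-fold ratio of means. The fold change was 1.17 on the log2(FPKM + 1) scale, which understates changes of low genes (SE 0.55, 95% interval -0.11 to 2.44, unadjusted p = 0.0677, limma adjusted p = 0.631). The exact two-sided permutation test gave p = 0.1, the smallest that this design allows. Nlrc5 rested on about 40 to 368 estimated fragments per library, and its level varied 9.43-fold over the 6 libraries, against 1.59-fold (H2-K1) to 2.69-fold (Tap1 and Tap2) for the other 9 genes. The difference of a low gene depends on the pseudocount, being 1.94 at a pseudocount of 0.1 and 0.46 at 5. The other 9 genes, among them genes that NLRC5 is known to act on, also gave no difference past the adjusted threshold. Their fold changes were 0.15 for B2m, 0.33 for H2-K1, 0.25 for H2-D1 and -0.15 for H2-T23. For the rest they were -0.49 (Tap1), -0.19 (Tap2), 0.33 (Tapbp), -0.06 (Psmb8) and 0.31 (Psmb9).

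**Figure D4:**
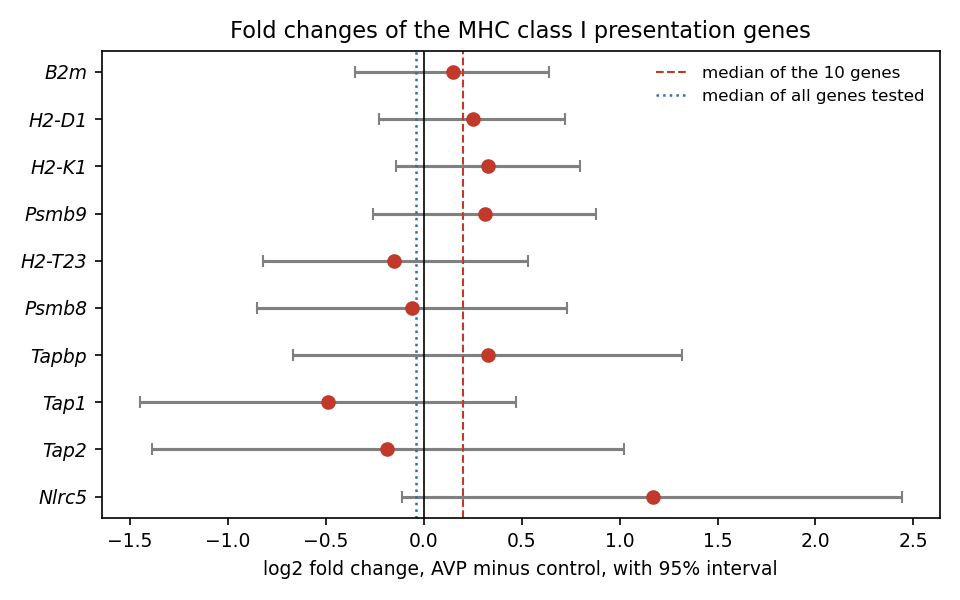
Fold change (AVP minus control, log2 of scaled FPKM + 1) of each gene with its 95% interval from limma, in order of mean level; the dashed line marks the median of the 10 genes (0.20) and the dotted line the median of all tested genes (-0.04). Every interval includes 0, and those of B2m, H2-K1, H2-D1, H2-T23, Psmb8 and Psmb9 stay within 1 log2 unit of it.

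For 6 of the 10 genes the whole 95% interval lay within 1 log2 unit of 0, namely B2m, H2-K1, H2-D1, H2-T23, Psmb8 and Psmb9. The intervals of Tap1, Tap2, Tapbp and Nlrc5 did not. The median residual SD was 0.39 on the log2 scale for the 10 genes, against 0.76 over all tested genes and 0.32 for the 615 genes with a mean of at least 100 FPKM.

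Of 19 further genes of peptide supply and loading, 16 were tested and 0 passed an adjusted p under 0.05 (limma); at an unadjusted p under 0.05, 1 was higher and 1 lower, with a median log2 fold change of -0.05. The gene with the highest mean was Hspa5, the chaperone BiP of the endoplasmic reticulum, at 237, 169 and 246 FPKM in AVP libraries, against 59.9, 90.1 and 159 FPKM in controls, and a fold change of 1.24 (SE 0.39, limma adjusted p = 0.378). Each AVP library lay above each control. Canx, the chaperone calnexin that holds new heavy chains, was the gene that passed in the other direction and was singled out for it after its values were seen, at 6.63, 21.5 and 2.69 FPKM in AVP libraries, against 29.2, 39.8 and 31.1 FPKM in controls (fold change -1.91, SE 0.65, limma adjusted p = 0.428). The proteasome activator subunits Psme1 (116 ± 14.8 FPKM in AVP libraries and 102 ± 23.6 FPKM in controls, SD, n = 3 each) and Psme2 (121 ± 34.3 and 139 ± 27.3 FPKM) overlapped. Thop1 and Lap3, peptidases of the cytosol, were listed at 0 in every library.

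Of the 11 other proteasome core subunits 0 passed the adjusted threshold, 1 was lower at an unadjusted p under 0.05 in limma, and the median was -0.11. That gene, Psmb4, singled out for its p, had 50.2 ± 23.3 FPKM in AVP libraries and 106 ± 11.0 FPKM in controls (SD, n = 3 each; fold change -1.07, SE 0.33, limma adjusted p = 0.378). The most abundant, Psma7 (159 ± 59.7 FPKM in AVP libraries and 174 ± 39.2 FPKM in controls), Psmb1 (166 ± 27.0 and 143 ± 30.5 FPKM) and Psma2 (165 ± 63.0 and 143 ± 26 FPKM), overlapped between groups. The constitutive Psmb7 was 44.2 ± 10.8 FPKM in AVP libraries and 63.2 ± 8.26 FPKM in controls, and Psmb5 was 54.7 ± 17.1 and 50.5 ± 8.78 FPKM. All AVP libraries lay below all controls for Psmb7 as deposited, but not after scaling, and 0 of the 3 constitutive counterparts passed at an unadjusted p under 0.05 in limma, with a median of -0.45.

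Of the other heavy chains on the list, 20 were found, 13 were tested and 0 passed either threshold in limma, with a median of -0.18. The highest was H2-Q10, a secreted class I molecule known mainly from liver, at 239, 301 and 317 FPKM in AVP libraries, against 438, 364 and 337 FPKM in controls. All AVP libraries lay below all controls, with a fold change of -0.33 (SE 0.21, limma adjusted p = 0.748). H2-Q10 shared none of its 151-base stretches with another gene and its control mean of 379 FPKM lay beside the 380.4 FPKM of H2-K1. That search covers identical stretches of annotated transcripts only. Whether reads of other heavy chains or alleles were counted to H2-Q10 with mismatches was not tested. The nonclassical H2-T22, a ligand of some gamma-delta T cells, had 31.5 ± 18.6 FPKM in AVP libraries and 21.4 ± 3.46 FPKM in controls (SD, n = 3 each). H2-Q7, which encodes the Qa antigen anchored by a lipid tail, had 28.4 ± 13.7 and 23.9 ± 7.68 FPKM, but 9.54% of its 151-base stretches lie in other genes too, mostly H2-Q6, which leaves its level uncertain.

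Regulators of class I transcription numbered 21, of which 19 were tested and 0 passed the adjusted threshold; 1 was lower at an unadjusted p under 0.05 in limma, and the median was -0.18. Jak1, the kinase shared by interferon receptors, had 37.4, 37.7 and 53.9 FPKM in AVP libraries, against 101, 73 and 73.6 FPKM in controls (fold change -0.85, SE 0.30, limma adjusted p = 0.466), with no overlap. Ifngr2, a chain of the interferon-gamma receptor, had 92.3 ± 12.6 FPKM in AVP libraries and 133 ± 40.3 FPKM in controls, and the factor Irf1 had 92.7 ± 10.6 and 97.2 ± 37.4 FPKM (SD, n = 3 each); both overlapped.

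The sort could also hold other blood cells, and class I genes are expressed by nearly all of them, so summed markers are given beside the values above. The 10 B cell markers summed to 1358 to 5080.3 FPKM in AVP libraries and to 5050.5 to 7936 FPKM in controls, with all 10 above 0 in every library. Igkc had the highest mean of them (2221 ± 1389 and 4715 ± 1443 FPKM, SD, n = 3 each). Fitted values were below 0 for 9 of the 10, while Cd79a hardly differed (426 ± 193 and 448 ± 29.1 FPKM). Ighd went the other way, with each AVP library above each control (148 ± 49.0 and 63.5 ± 14.2 FPKM). The 11 monocyte markers summed to 212 to 1079.5 FPKM in AVP libraries, lowest in AVP library 3, and to 511 to 1250.0 FPKM in controls. The 10 T cell markers summed to 0.783 to 119 FPKM and to 0.701 to 14.3 FPKM, with Cd3e, Cd4, Cd8a and Cd8b1 listed at 0 throughout, and the 7 NK cell markers to 3.01 to 47.5 FPKM in AVP libraries and to 3.71 to 4.69 FPKM in controls, both highest in AVP library 3. The 8 basophil markers reached 338 FPKM in AVP library 1 and at most 31.1 FPKM in controls. The 8 red cell markers summed to 119436 to 242630.4 FPKM in AVP libraries and to 102729 to 154922 FPKM in controls. The 6 eosinophil markers summed to 4.48 to 12.7 FPKM in AVP libraries and to 3.11 to 8.52 FPKM in controls (Prg2, Epx and Ear6 at 0). Sums were 84.4 to 212 and 99.5 to 199 FPKM for 6 platelet markers (Tubb1 at 0). For 7 dendritic cell markers they were 2.51 to 33.8 and 0.737 to 43.2 FPKM (Siglech and Xcr1 at 0). The 12 neutrophil markers summed to 166178 to 194625 FPKM in AVP libraries and to 170336 to 190335 FPKM in controls. The part of these cells in the values of the 10 genes was not tested, and in bulk RNA fewer cells of a type and less RNA per cell cannot be told apart.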

How the data were processed

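The values are, per the labels, from total RNA of sorted blood neutrophils, as TruSeq libraries sequenced in paired reads. Per the submitters' processing notes the authors used HISAT2 2.1, cutadapt 1.16.5, bcl2fastq 2.19, DESeq2 2.11.40.6 and featureCounts 1.6.4 with mm10; what each did, and the annotation, is not given in the sources used here. No unit is named in the files. The deposited values were read as FPKM because they are fractional and, times transcript length, sum to 783518 to 843089 per library. Depth is therefore an estimate, from the value of 1 fragment in short pseudogenes. Library totals were 755140 to 829725 FPKM.

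A gene was tested if it reached 1 FPKM in at least 3 libraries (8523 of 47561 features), which all 10 members did. Nlrc5 did so through the AVP libraries, since among the controls only library 1 reached 1 FPKM. Scaling used a trimmed mean of log ratios (30% of ratios and 5% of levels trimmed). limma 3.58.1 in R 4.3.3 was fitted to log2(FPKM + 1) with an intensity trend, no replicate block and Benjamini-Hochberg adjustment at 0.05. A run on simulated data was required only to give the largest planted changes the right sign. How many smaller changes it recovered is not given here. Since the values are not counts, no count-based test was run. Exact two-sided permutation tests were made with scipy 1.17.1 in Python 3.11.15 (smallest p 0.1), with pandas 2.3.3, numpy 2.4.6 and matplotlib 3.10.9. Gene IDs, coordinates and promoters are from RefSeq (GRCm38), where 44705 features (94%) matched by symbol; transcripts for shared stretches are GENCODE vM21.

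The members and lists (203 genes, 199 found) were chosen with earlier results of these data known. Cell type markers make up 10 of the 18 lists and are given mainly as sums. The text names all members, the 3 genes of highest mean in each other pathway list and among the neutrophil markers, and the 5 genes most like the members in pattern; any other gene named was chosen after its values were seen. The alternatives were other scalings, filters and pseudocounts, variance models, a replicate block, removal of haemoglobin, immunoglobulin and mitochondrial genes, and leaving out each library.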

Additional observations from a re-analysis of the deposited data

Results flagged for a closer look

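In 3 genes of the pathway lists a level of at least 1 FPKM appeared in an AVP library while every control library was listed at 0. All 3 reached 1 FPKM in too few libraries to be tested. Only this direction was searched. Neither the reverse case nor the share over all features was counted, so the number says nothing particular about these lists or about AVP. H2-Q2 (0.0351 FPKM in AVP library 2) and H2-T3 (0.035 FPKM in AVP library 1) were also at 0 in every control, at levels under 1 FPKM. Cxcl10, a chemokine induced by interferon-gamma, was at 17.3 FPKM in AVP library 3 and 3.40 FPKM in AVP library 2. Gbp8, a guanylate-binding protein of the interferon response, was at 2.82 FPKM in AVP library 3. Mr1, a class I-like molecule that presents vitamin metabolites to T cells, was at 1.31 FPKM in AVP library 2. AVP library 3 was also the highest in summed T cell and NK cell markers, at 119 and 47.5 FPKM, and their part in the values was not tested. In these files a listed 0 can be a failed estimate.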

How the results depend on the processing

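Among all tested genes, 0 were higher and 0 lower in AVP libraries at an adjusted p under 0.05 in limma (8.47% at an unadjusted p under 0.05); 11 were higher with a filter of 10 FPKM, 3 with a pseudocount of 5, 1 with no intensity trend and 0 to 4 with a library left out, the 4 without control replicate 3. Lower calls stayed at 0, and 0 of the 10 members were called, under all 17 alternatives. Same-numbered libraries did not deviate together (correlations 0.0205, -0.0129 and -0.0423), and with the replicate block 0 genes were higher and 0 lower. The members' median log2 fold change of 0.20 lay between 0.13 and 0.25 with a library left out and between 0.11 and 0.20 otherwise. Of 169 single-gene values 163 kept their sign. The 6 that changed sign, beside the range with a library left out, were B2m (-0.07 to 0.26; -0.07 without control replicate 1), H2-T23 (-0.30 to 0.06; 0.02 without AVP replicate 3 and 0.06 without control replicate 1), Tap2 (-0.52 to 0.23; 0.23 without AVP replicate 2) and Psmb8 (-0.26 to 0.19; 0.19 without AVP replicate 3 and 0.18 without control replicate 1); the cause was not tested. With a library left out, Psmb8 over Psmb5 ranged from -0.47 to 0.05, H2-K1 over B2m from -0.05 to 0.45 and H2-D1 over B2m from -0.10 to 0.32, each changing sign, while Psmb9 over Psmb6 (0.65 to 1.09) and Psmb10 over Psmb7 (0.22 to 0.94) did not. Tapbp ranged from 0.11 to 0.75. Nlrc5 was 0.97 to 1.42 with a library left out and was removed by the 10 FPKM filter; its adjusted p was 0.498 to 0.834. Nlrc5 rests on as few as 40 estimated fragments in a library, its fold change was 0.46 to 1.94 over the pseudocounts tried, and 3 libraries against 3 bound the exact test at p = 0.1.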

Other observations

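Other targets of interferon-gamma were described beside the class I genes. Of 19 genes of the guanylate-binding, immunity-related GTPase and chemokine families, 10 were tested, 0 passed the adjusted threshold in limma, 1 passed an unadjusted p under 0.05 in each direction, and the median log2 fold change was -0.10. Irgm1, a GTPase of vacuole defence and the most abundant of them, read 69.5, 71.1 and 39.3 FPKM in AVP libraries, against 17.8, 30.4 and 28.2 FPKM in controls (fold change 1.27, SE 0.40, limma adjusted p = 0.377), with no overlap. Gbp3 passed in the other direction and was chosen for it after its values were seen: it was listed at 0 in AVP libraries 1 and 2 and read 5.81 FPKM in AVP library 3, against 6.02, 28.4 and 6.41 FPKM in controls. Gbp9 (22.2 ± 5.09 FPKM in AVP libraries and 19.0 ± 3.04 FPKM in controls, SD, n = 3 each) and Igtp (13 ± 6.34 and 15.6 ± 9.47 FPKM) overlapped, and Gbp5, Iigp1, Cxcl9 and Ido1 were listed at 0 in every library.

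All 11 MHC class II genes had fitted values below 0, against 4459 of all 8523 tested genes. Their median was -0.46, against -0.04 over all tested genes, and single values ran from -2.40 (H2-Oa) to -0.03 (H2-DMb1) and -0.09 (Cd74). The AVP and control libraries overlapped for all 11. In limma 0 passed the adjusted threshold and 1, H2-Oa, was lower at an unadjusted p under 0.05. Cd74, the invariant chain, had 762, 1820.0 and 1124 FPKM in AVP libraries, against 1384, 1028 and 1569 FPKM in controls. H2-Aa had 357, 1033 and 1141 FPKM in AVP libraries, against 1106, 1342 and 1016 FPKM in controls, and H2-Ab1 had 154, 499 and 274 FPKM, against 299, 321 and 334 FPKM. The summed B cell markers, from cells that carry class II, were 1358, 5080.3 and 4033 FPKM in the same AVP libraries, against 6169.8, 7936 and 5050.5 FPKM in controls. Single B cell markers did not all run this way, as Ighd was higher in each AVP library than in each control. The part of B cells in the class II values was not tested.

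The genes whose pattern over the 6 libraries was most like the mean standardized pattern of the 10 genes, among 5274 with a mean of at least 5 FPKM, were Rassf5 (Pearson r 0.975), Anxa1 (0.970), Cox6a1 (0.968), Zmat2 (0.967) and Snhg15 (0.966). The mean pattern itself was 0.27, 0.32 and 0.03 in AVP libraries and 0.24, -0.52 and -0.35 in controls, in SD units, so that in this mean control library 1 stood with the AVP libraries. The 10 genes did not share 1 pattern: control library 1 ran from -1.83 (B2m) to 1.54 (H2-T23). Correlations of their 45 pairs had a median of 0. Anxa1, an anti-inflammatory protein abundant in neutrophils, read 906, 1139 and 603 FPKM in AVP libraries, against 1022, 396 and 542 FPKM in controls. Rassf5 and Snhg15 were listed at 0 in control libraries 2 and 3.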
